A study of Mus musculus with 12 samples.

Results

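The comparison described here set 9 murine neuroblastoma tumors treated with high intensity focused ultrasound (HIFU) against 3 untreated control tumors, which together make up all 12 samples of the series. The treated tumors were 3 each labelled 24, 48 and 72 h, and each time was given equal weight. Every tumor came from neuroblastoma cells inoculated into A/J mice, an inbred laboratory strain, and its frozen tissue was measured on 1 Affymetrix Mouse Clariom S array, a chip that reads the RNA of most protein-coding genes. The mode of HIFU is named as mechanical fractionation, and the times are read here as hours after HIFU, which the labels do not settle. The labels give no age, sex, neuroblastoma line or sham treatment, and they do not say whether each tumor grew in its own animal. The p-values below therefore measure the spread between these arrays, which may in part be technical. The members were all 22206 probe sets, with attention to those that lay on the same side in all 9 treated arrays.

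Mechanical HIFU breaks tissue with short bursts of focused sound, and the fragments are then cleared by incoming immune cells. Neutrophils are among the first of these cells, and macrophages follow and take up debris and blood. Interferons released by immune cells switch on genes of antigen processing, among them the immunoproteasome, which cuts proteins into peptides for MHC class I. Neuroblastoma, a tumor of the sympathetic nervous lineage, commonly carries little MHC class I.

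Signals are given as log2 values per probe set, and the base of 2 was read from the range of the values. The median signal was 5.44 to 5.68 on the 9 HIFU arrays and 5.43 to 5.45 on the 3 control arrays. Dbh, an enzyme of noradrenaline synthesis that marks this tumor lineage, read 13.79 to 16.46 in HIFU tumors, against 11.99, 14.13 and 16.11 in control tumors, so the labelled tissue had its marker on both sides. The arrays also differed in their signal from skeletal muscle. The median over 26 muscle structure genes was 11.84 to 15.85 in the HIFU arrays, against 9.03, 9.07 and 11.56 in the control arrays. The lowest HIFU array, 24 h replicate 2, and the highest control, replicate 3, were close in this measure. The groups did not overlap in it, so the values given below with muscle signal as a covariate cannot tell it apart from treatment. The highest HIFU array, 72 h replicate 2, also had the highest median signal, and it stood apart from the other treated arrays in several lists below. In bulk tissue, more cells of a type and more RNA per cell cannot be told apart.

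Few genes passed a test over the whole array, although many were shifted in every treated tumor. With limma and Benjamini-Hochberg adjustment, 4 of 22206 probe sets changed at an adjusted p under 0.05 (0.018%), and all 4 rose: Lcn2, Pdk4, Retreg1 and Mt1. No probe set fell by that test (0%), although 1335 (6.01%) were higher and 1907 (8.59%) were lower at an unadjusted p under 0.05. In 390 probe sets (1.76%) all 9 HIFU arrays lay above all 3 controls, and in 366 (1.65%) all 9 lay below them. After the arrays were centred on their medians, the split was 312 above and 515 below. The median difference over all probe sets was -0.01 as deposited and -0.10 after centring, so differences of about that size have no settled sign.

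The upward group was larger in effect and lower in level than the downward group. Its 390 probe sets differed by a median of 1.48 log2 units, with 142 over 2 units and 29 over 4, and had a median control signal of 5.58. The 366 downward probe sets differed by a median of -0.89, with 23 over 2 units and 4 over 4 in size, and had a median control signal of 9.18. Many of the separations were narrow. The gap between the nearest HIFU and control arrays was under 0.1 in 120 upward and 150 downward probe sets, and a further 349 and 321 missed the separation by no more than 0.1. The gap exceeded 1 log2 unit in 25 upward probe sets and in 2 downward ones, which were those of Cd72 and Aldoc.

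**Figure D1:**
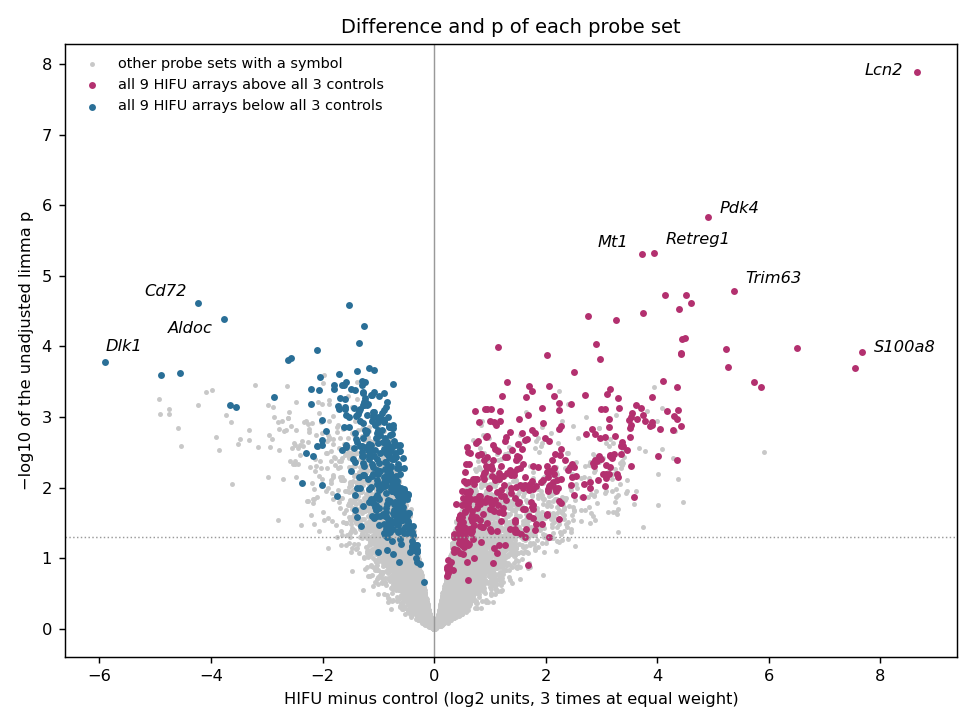
Each point is 1 probe set, with its HIFU minus control difference in log2 units on the x axis and the −log10 of its unadjusted limma p on the y axis; the dotted line marks the 0.05 level. Lcn2 stands alone at the upper right with a difference of 8.65. Cd72, Aldoc and Dlk1 are labelled on the downward side, and Pipox, not labelled, differs by -4.90. Coloured points are the 390 and 366 probe sets whose HIFU and control arrays did not overlap.

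Lcn2 encodes lipocalin 2, a secreted protein that withholds iron from bacteria by binding their siderophores and is made by neutrophils and by stressed epithelia. Its signal was 14.87, 13.36 and 15.23 in the 24 h tumors, 14.29, 15.76 and 15.28 in the 48 h tumors and 17.55, 18.81 and 15.95 in the 72 h tumors, against 6.45, 6.53 and 8.09 in the control tumors. Every treated tumor was above every control, by a gap of 5.27 log2 units, and all 3 tumors at 72 h were above all 6 earlier ones. The pooled difference was 8.65 ± 0.61 (SE), about 403-fold (limma, adjusted p = 0.000287). It stayed past the threshold when any 1 of the 12 arrays was left out, with differences from 8.37 to 9.19.

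The promoter of Lcn2 is shown because this was the largest difference among the 756 separated probe sets. The 250 bases before its start are given from RefSeq (chr2:32387740-32387989, minus strand, GRCm38.p6), 5′ to 3′, with capitals for the 1 match to TTGCNNAA, the core bound by C/EBP factors, searched on both strands. This motif was searched for after the values were seen, and 9.56% of 32851 promoter windows of the same length hold it. A match describes letters and not binding.
Lcn2: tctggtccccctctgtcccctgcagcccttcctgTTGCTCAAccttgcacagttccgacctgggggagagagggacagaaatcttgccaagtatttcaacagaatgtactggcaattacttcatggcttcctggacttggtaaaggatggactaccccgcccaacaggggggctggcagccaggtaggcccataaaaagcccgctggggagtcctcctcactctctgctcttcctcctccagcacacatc

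Pdk4 encodes a kinase that blocks the entry of pyruvate into the citric acid cycle and is induced by fasting, fatty acids and glucocorticoids. It had a lowest, median and highest signal of 10.34, 12.73 and 15.27 in HIFU tumors, against 8.39, 8.08 and 7.88 in control tumors. The groups were 1.95 apart, the lowest treated tumor was 72 h replicate 1 and the highest was 24 h replicate 1. The difference was 4.91 ± 0.54 (SE), about 30.1-fold (limma, adjusted p = 0.0163).

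Retreg1 encodes a receptor that directs parts of the endoplasmic reticulum to autophagy. Its signal was 10.58, 12.95 and 15.35 (lowest, median, highest) in HIFU tumors, against 9.18, 8.94 and 9.51 in control tumors. The groups did not overlap, and the same 2 treated tumors were at the ends as for Pdk4. The difference was 3.94 ± 0.49 (SE; limma, adjusted p = 0.0273).

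Mt1 encodes a metallothionein, a small protein that binds zinc and copper, and its neighbour Mt2 encodes a close relative. Mt1 had a signal of 15.74, 18.08 and 19.41 in HIFU tumors (lowest, median, highest), against 14.70, 14.04 and 14.36 in control tumors, a difference of 3.73 ± 0.46 (SE; limma, adjusted p = 0.0273). Mt2 had 14.57, 17.22 and 19.21 in HIFU tumors, against 12.98, 12.09 and 13.63 in control tumors, a difference of 4.51 ± 0.64 that did not pass (adjusted p = 0.0572). Neither gene overlapped between the groups, and both were lowest among treated tumors in 72 h replicate 1.

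The calls of Pdk4, Retreg1 and Mt1 did not hold in every fit that left out an array. Pdk4 kept its call in 7 of the 12 fits that left out 1 array, Retreg1 in 6 and Mt1 in 4. All 3 lost it without 24 h replicate 1, 24 h replicate 3, 72 h replicate 3, control replicate 1 or control replicate 2. Retreg1 also lost it without 48 h replicate 2, and Mt1 without any of the 48 h arrays. Their differences stayed between 4.68 and 5.14 for Pdk4, 3.73 and 4.11 for Retreg1, and 3.54 and 3.93 for Mt1.

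The 250 bases before the start of Mt2 (chr8:94172368-94172617, plus strand, GRCm38.p6, RefSeq) are shown because the metallothionein pair lay next to each other and were both separated. Capitals mark 5 matches on either strand to TGCNCNC. This pattern is looser than the core of the metal response element bound by the zinc-sensing factor MTF1, TGCRCNC (R is A or G). Not every match, such as TGCTCTC, is therefore such a core. At least 1 match is in 44.4% of the 32851 windows and 5 or more are in 0.344%. The table's window for Mt1 is not shown.
Mt2: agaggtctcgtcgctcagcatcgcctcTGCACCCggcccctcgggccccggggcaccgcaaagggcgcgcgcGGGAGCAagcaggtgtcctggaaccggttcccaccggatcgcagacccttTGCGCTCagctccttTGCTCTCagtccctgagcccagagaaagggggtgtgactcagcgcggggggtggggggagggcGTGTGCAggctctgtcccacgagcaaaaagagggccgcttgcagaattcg

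**Figure D2:**
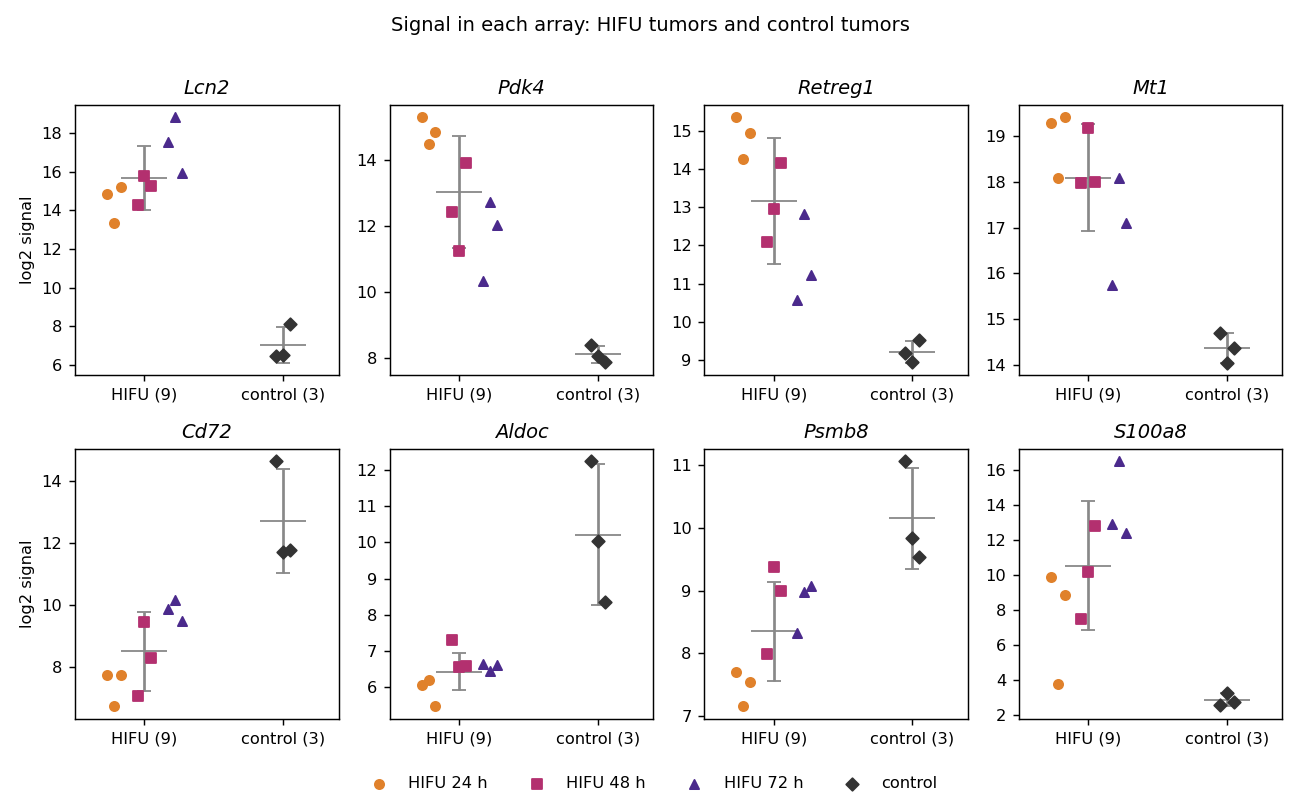
The log2 signal of 8 genes in each array, with HIFU tumors on the left of each panel (24, 48 and 72 h by colour and shape) and control tumors on the right; grey bars are the mean and SD of 9 HIFU or 3 control arrays. In all 8 panels no treated tumor overlaps a control, with the widest gap in Lcn2 and the widest scatter among treated tumors in S100a8.

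Trim63 and Fbxo32 were just short of the threshold. They are ubiquitin ligases that mark muscle proteins for breakdown, and had signals of 8.03 to 14.85 and 7.80 to 13.38 in HIFU tumors. In control tumors they had 6.25 to 7.16 and 6.47 to 6.90. The differences were 5.38 ± 0.76 and 4.15 ± 0.59 (SE; adjusted p = 0.0572 for each), and all 9 treated tumors were above all controls for both. Klhl38, the next protein-coding gene to Fbxo32 on chromosome 15, was also separated, at 6.72 to 9.92 in HIFU tumors against 4.53 to 4.84 in control tumors. The muscle atrophy and autophagy list as a whole was mixed. Trim63, Fbxo32 and Retreg1 were its only separated members among 23 measured, beside 1.76% of all probe sets upward. At an unadjusted p under 0.05, 8 were higher and 3 lower, beside 6.01% and 8.59% of all probe sets. The list's median difference of 0.46 was -0.29 with each array's muscle median as a covariate.

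The list of muscle stress and cytoskeleton proteins had the largest share of separated members among the lists plotted below. Of its 21 measured members, 12 lay above in all 9 HIFU arrays and 0 below, beside the 1.76% of all probe sets. Its median difference was 2.76, and 0.10 with the muscle covariate. Hspb7, a small heat shock protein of muscle, differed by 4.61 ± 0.68 (adjusted p = 0.0572), and Abra, an activator of actin-dependent transcription in striated muscle, by 2.76 ± 0.42 (adjusted p = 0.063). Mustn1, a small protein of regenerating muscle and skeleton, read 13.41 to 17.01 in HIFU tumors and 10.82 to 11.30 in control tumors, with the widest upward gap after Lcn2, 2.11.

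Of 21 measured genes of fatty acid use, 8 were above in all 9 arrays and 0 below, beside 1.76% and 1.65% of all probe sets. The median difference was 0.92, and it turned to -0.21 with the muscle covariate. They included Fabp3, a fatty acid carrier of muscle, with 9.55 to 12.25 in HIFU tumors against 6.73 to 8.41 in control tumors (difference 3.75 ± 0.57, adjusted p = 0.0613). Ucp3, a mitochondrial carrier of muscle, differed by 3.14 ± 0.64, and Ppargc1a, a coactivator of mitochondrial genes, by 2.50 ± 0.47 (adjusted p = 0.125 for each).

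A list of glucocorticoid targets held 3 of the 4 genes that rose, Lcn2, Pdk4 and Mt1. The list was drawn up with earlier results of these arrays known, so this is no independent sign of its direction. Of its 25 measured members, 9 were above and 1 below in all 9 arrays, beside 1.76% and 1.65% of all probe sets. The median difference was 0.79, and it turned to -0.07 with the muscle covariate. Tsc22d3, a glucocorticoid-induced leucine zipper chosen here after its values were seen, averaged 11.12 ± 1.01 in HIFU tumors (SD, n = 9) and 8.66 ± 0.09 in control tumors (SD, n = 3), with adjusted p = 0.125. The 1 member below was Ddit4, an inhibitor of growth signalling through mTORC1.

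**Figure D3:**
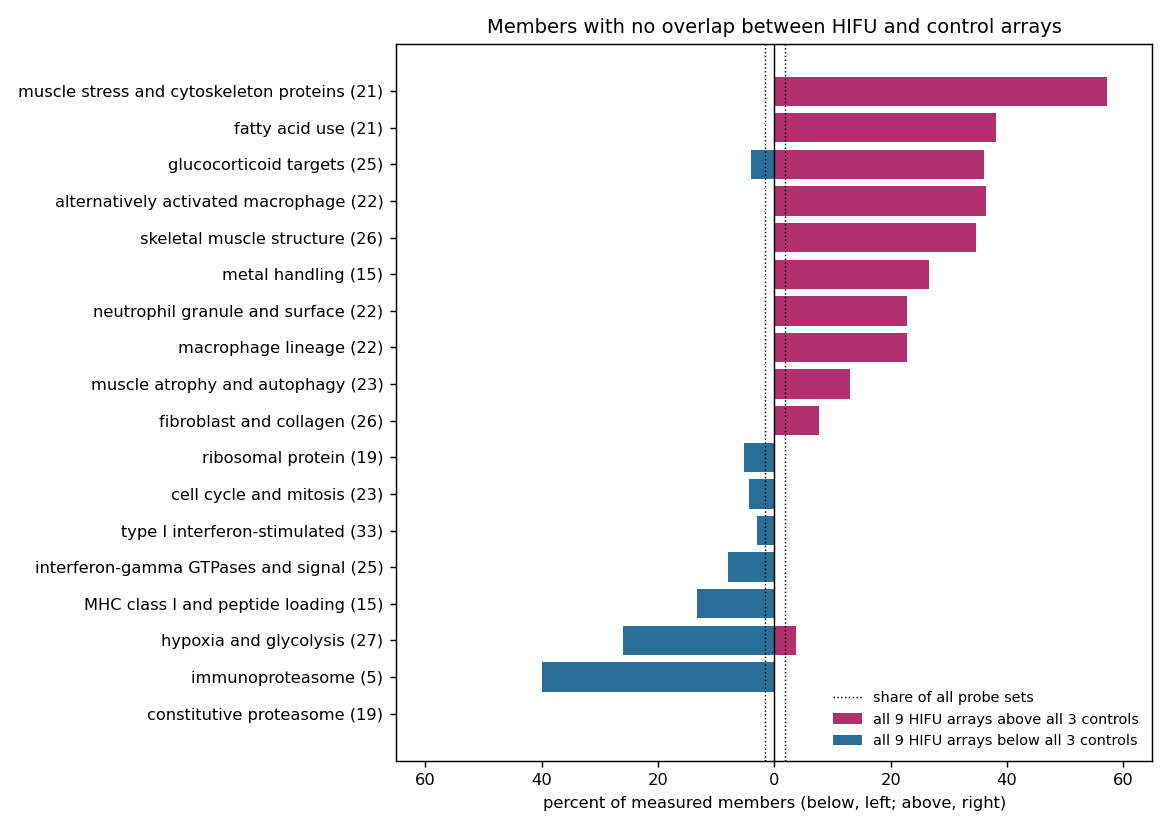
For 18 gene lists, with the number of measured members in brackets, bars show the percent of members whose 9 HIFU arrays all lay above (right) or all below (left) the 3 controls; dotted lines mark the shares of all probe sets, 1.76% and 1.65%. Muscle stress proteins reach 12 of 21 above, the immunoproteasome 2 of 5 and hypoxia genes 7 of 27 below, and the constitutive proteasome has 0 on either side.

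Neutrophil genes had large differences and a wide scatter among treated tumors. S100a8 and S100a9, which form the alarmin calprotectin and are neighbours on chromosome 3, had signals of 3.78, 10.16 and 16.51 and of 5.90, 11.54 and 16.95 (lowest, median, highest) in HIFU tumors. In control tumors they were at 2.54 to 3.26 and 4.46 to 5.18. The groups did not overlap, but 24 h replicate 2 was within 1 log2 unit of the controls and 72 h replicate 2 was the highest for both. The differences were 7.68 ± 1.34 and 6.51 ± 1.12 (SE; adjusted p = 0.105 and 0.104), and with any 1 array left out they stayed within 7.23 to 8.30 and 6.14 to 6.97. The control mean of S100a8, 2.85, was among the lowest 25% of control means, so the size of its difference is uncertain.

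Other neutrophil genes had the same 2 tumors at their ends. Retnlg, a secreted resistin-like protein of neutrophils, read 6.23 to 16.08 in HIFU tumors and 3.30 to 5.21 in control tumors. Mmp8, a collagenase stored in neutrophil granules, overlapped, with 3.02 to 12.08 in HIFU tumors against 3.30 to 3.91 in control tumors. Of 22 measured members of the neutrophil list, 5 were above and 0 below in all 9 arrays, beside 1.76% and 1.65% of all probe sets. At an unadjusted p under 0.05, 19 were higher (6.01% of all probe sets). The list's median difference was 2.88 (0.74 with the muscle covariate), with 0.98 at 24 h, 1.99 at 48 h and 5.38 at 72 h.

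Some macrophage genes of repair were separated upward. Cd163, the receptor that clears haemoglobin, had signals of 6.83, 9.03 and 10.62 in HIFU tumors (lowest, median, highest), against 4.0, 5.09 and 5.18 in control tumors. The groups were 1.65 apart, and the difference of 4.11 ± 0.81 was not past the threshold (adjusted p = 0.125). Of 22 alternatively activated macrophage genes, 8 were above in all 9 arrays, with a median difference of 1.74. Of 22 lineage genes 5 were above, with a median of 0.97, and 5 had a negative difference. The share above was 1.76% over all probe sets. Relative to the control mean, the lineage median ran from -1.19 to 3.57 in the treated tumors, against -0.40 to 0.44 in the control tumors. The 2 lists share genes, and the difference between them was not tested. With the muscle covariate the medians turned to -0.11 and -1.57, with 0 members of either list higher at an unadjusted p under 0.05. Ccl9 and Ccl6, adjacent chemokine genes that draw myeloid cells, differed by 4.17 ± 0.93 and 3.51 ± 0.84, both with all treated tumors above all controls. They were the 2 separated members of 21 measured CC chemokines, whose median of 1.18 turned to -0.69 with the muscle covariate.

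Serpina3n, an acute-phase protease inhibitor, was the other separated member of its list beside Lcn2 (2 of 22 above, beside 1.76% of all probe sets). Its signal was 10.23 to 14.79 in HIFU tumors and 7.77 to 8.77 in control tumors, a difference of 4.43 ± 0.78 (adjusted p = 0.105). Over the 22 measured acute-phase genes the median difference was 0.20, and -0.16 with the muscle covariate. Il1b and Il6, cytokines that drive this response in liver, overlapped between the groups. Il6 had 8.01 to 12.09 in HIFU tumors and 9.24 to 11.38 in control tumors.

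On the downward side, Cd72 had the widest gap and the smallest unadjusted p. It encodes a receptor of B cells and some myeloid cells that restrains B-cell receptor signals. Its signal was 7.73, 6.71 and 7.71 at 24 h, 7.06, 9.43 and 8.27 at 48 h and 9.85, 10.15 and 9.47 at 72 h, against 14.66, 11.72 and 11.77 in the control tumors. All 9 treated tumors were below all controls, by at least 1.57, and all 3 tumors at 24 h were below all 3 at 72 h. The difference was -4.23 ± 0.62 (SE) with adjusted p = 0.0572. Among 21 measured B-cell genes, Cd72 was the 1 member that was separated, beside 1.65% of all probe sets that lay below. The list's median difference was 0.10.

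Other leading downward genes had smaller differences with little scatter. Mtmr2, a lipid phosphatase of endosomes, read 11.18, 11.65 and 12.09 in HIFU tumors (lowest, median, highest), against 13.50, 13.35 and 12.74 in control tumors, and differed by -1.53 ± 0.23 (adjusted p = 0.0572). Itgax, the integrin CD11c of dendritic cells and macrophages, read 3.41 to 4.43 in HIFU tumors and 4.72 to 5.5 in control tumors (-1.25 ± 0.20, adjusted p = 0.0705). Tor3a, an interferon-responsive ATPase of the endoplasmic reticulum, differed by -1.35 ± 0.23 (adjusted p = 0.102). The 3 genes were separated from the controls in every treated tumor.

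Dlk1, a Notch-related protein of immature adrenal and neural cells, had the largest downward difference, -5.89 ± 1.07 (adjusted p = 0.116). Its signal was 6.87, 8.22 and 9.82 in HIFU tumors (lowest, median, highest), against 16.45, 15.65 and 10.12 in control tumors. The treated tumors were below all controls, but control replicate 3 was only 0.30 above the highest of them. Nnat, another imprinted gene, of neural tissue, read 4.18 to 6.30 in HIFU tumors, against 12.03, 11.30 and 5.71 in control tumors, so its control replicate 3 lay within the treated range.

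Genes of the hypoxia response and of glycolysis were on the downward side. Of 27 measured members, 7 were below and 1 above in all 9 arrays, beside 1.65% and 1.76%, and the median difference was -0.53. Aldoc, a glycolytic aldolase, had signals of 5.48, 6.57 and 7.31 in HIFU tumors (lowest, median, highest), against 12.24, 10.04 and 8.35 in control tumors. The groups were 1.04 apart, and the 3 controls were more scattered than the 9 treated tumors. The difference was -3.77 ± 0.58 (adjusted p = 0.0631).

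Downward members included genes that respond to low oxygen or nutrient stress. Ddit4 read 9.40 to 11.44 in HIFU tumors and 12.30 to 13.17 in control tumors, a difference of -2.10 ± 0.37 (adjusted p = 0.104). Stc2, a secreted glycoprotein of low oxygen and endoplasmic reticulum stress, differed by -2.56 ± 0.46 (adjusted p = 0.11), and Ankrd37, a target of the hypoxia-inducible factor, by -2.06 ± 0.42 (adjusted p = 0.125). The direction was not shared by the whole list, since 7 of the 27 had a positive difference. Egln3, a hypoxia-induced oxygen sensor named here after its values were seen, was separated upward, averaging 9.42 ± 1.30 in HIFU tumors (SD, n = 9) and 6.94 ± 0.83 in control tumors (SD, n = 3), with adjusted p = 0.194 by limma. Adm2, a vasodilator peptide of the calcitonin family that is outside the list, read 5.87 to 8.58 in HIFU tumors against 9.39 to 9.77 in control tumors, with a difference of -2.30 ± 0.62.

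Relative to the control mean, the medians of both interferon lists were negative in every treated tumor except 72 h replicate 2. In all 9 treated tumors the immunoproteasome median was negative, from -2.60 to -0.76, against -0.42 to 0.91 in the control tumors. The MHC class I median was also negative in all 9, from -1.57 to -0.34. It overlapped the control tumors, at -0.43 to 0.49. The immunoproteasome list had 5 measured members, all 5 lower at an unadjusted p under 0.05 (8.59% of all probe sets). Of them, 2 were separated (1.65% of all probe sets lay below), and the list's median difference was -1.80. The 19 measured constitutive proteasome subunits had 0 separated and a median of -0.01. Psmb8, the immunoproteasome subunit that replaces PSMB5, had signals of 7.16, 8.33 and 9.38 in HIFU tumors (lowest, median, highest), against 11.06, 9.84 and 9.54 in control tumors. All treated tumors were below all controls, and the difference was -1.80 ± 0.36 (adjusted p = 0.125). Psme2, a subunit of the interferon-induced proteasome cap, differed by -1.17 ± 0.22 (adjusted p = 0.125).

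Psmb8 lies in a run of 4 neighbouring genes in the MHC region of chromosome 17, and the whole run was lower. Psmb9, the partner subunit, differed by -1.90 ± 0.47, Tap1 by -2.10 ± 0.55 and Tap2 by -1.71 ± 0.33. The TAP proteins form the pump that carries peptides to MHC class I. Tap1, Psmb8 and Tap2 were separated, while Psmb9 overlapped, at 4.10 to 7.06 in HIFU tumors against 6.09 to 8.33 in control tumors. Their order in RefSeq is Psmb9, Tap1, Psmb8, Tap2. The whole 225 bases between the starts of Psmb9 and Tap1, which are read in opposite directions, are shown because both genes have their promoter there (chr17:34187331-34187555, plus strand, GRCm38.p6, RefSeq). No base is marked.
Psmb9-Tap1: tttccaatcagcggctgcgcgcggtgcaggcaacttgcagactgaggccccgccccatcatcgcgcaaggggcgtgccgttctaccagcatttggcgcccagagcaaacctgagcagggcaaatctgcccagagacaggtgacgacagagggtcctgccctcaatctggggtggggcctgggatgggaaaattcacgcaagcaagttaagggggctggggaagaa

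MHC class I itself was lower by about 1 log2 unit without separation of its main chains. H2-K1 read 13.38 to 15.75 in HIFU tumors and 15.51 to 16.04 in control tumors (-1.16 ± 0.28, adjusted p = 0.131). H2-D1 differed by -0.96 ± 0.35 (adjusted p = 0.245) and B2m, the shared light chain, by -1.15 ± 0.50 (adjusted p = 0.321). Of 15 measured members of the MHC class I list, 15 had a negative difference and 10 were lower at an unadjusted p under 0.05 (8.59% of all probe sets). Only Tap1 and Tap2 of this list were separated (1.65% of all probe sets lay below). The 13 measured MHC class II genes had a median of -0.72 and 0 separated members.

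The interferon lists had large median differences and few separated members. Over all probe sets, 1.65% were separated downward and 8.59% were lower at an unadjusted p under 0.05. The 25 measured genes of interferon-gamma response had a median of -1.30, with 2 separated and 15 lower at an unadjusted p under 0.05. The 33 type I interferon-stimulated genes had a median of -1.40, with 1 separated and 18 lower by that p. Socs1, a feedback inhibitor of interferon signalling, was among the separated, with 3.48 to 3.90 in HIFU tumors against 4.33 to 4.43 in control tumors. Irgm1, a GTPase that acts on membranes of infected cells, read 6.96, 8.68 and 10.65 in HIFU tumors and 11.94, 10.85 and 10.40 in control tumors, and its highest treated tumor, 72 h replicate 2, was above the lowest control.

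The same tumor stood apart across the type I list. Relative to the control mean, the list's median was 0.33 in 72 h replicate 2 and between -2.54 and -1.13 in the other 8 treated tumors, against 0.75, 0.12 and -0.89 in the control tumors. Bst2, a tether that holds budding viruses, read 10.21 to 13.28 in HIFU tumors against 13.05 to 16.27 in control tumors, and Apol9a, an interferon-induced apolipoprotein L, read 4.90 to 6.65 in HIFU tumors against 6.89 to 9.59 in control tumors. Apol9a has a near-identical neighbour, so its probe set may read both copies.

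The promoters of 6 genes, GTPases, antiviral genes and Socs1, are shown because they hold matches to the interferon-stimulated response element, the site read by interferon-activated factors. The 150 bases before each start are from RefSeq (GRCm38.p6; the first window where a gene has several), 5′ to 3′ in the direction of the gene, and capitals mark matches on either strand to TTTC, NN and TTTC in a row (N is any base), with overlapping matches joined. The windows are chr11:58199406-58199555 (plus strand) for Igtp, chr11:58214827-58214976 (plus) for Irgm2, chr11:48871421-48871570 (minus) for Irgm1, chr8:71537473-71537622 (minus) for Bst2, chr15:77411081-77411230 (minus) for Apol9a and chr16:10785537-10785686 (minus) for Socs1.
Igtp: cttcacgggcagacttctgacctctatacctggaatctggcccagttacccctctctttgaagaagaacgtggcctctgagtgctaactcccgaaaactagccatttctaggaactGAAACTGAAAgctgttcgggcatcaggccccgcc
Irgm2: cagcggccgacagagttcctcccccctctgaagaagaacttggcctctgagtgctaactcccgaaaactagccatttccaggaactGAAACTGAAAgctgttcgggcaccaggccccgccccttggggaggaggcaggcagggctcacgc
Irgm1: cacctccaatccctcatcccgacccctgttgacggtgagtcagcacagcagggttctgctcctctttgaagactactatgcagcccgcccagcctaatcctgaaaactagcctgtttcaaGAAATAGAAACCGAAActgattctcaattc
Bst2: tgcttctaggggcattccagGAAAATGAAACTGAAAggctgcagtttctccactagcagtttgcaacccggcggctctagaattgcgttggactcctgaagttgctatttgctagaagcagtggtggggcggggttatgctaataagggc
Apol9a: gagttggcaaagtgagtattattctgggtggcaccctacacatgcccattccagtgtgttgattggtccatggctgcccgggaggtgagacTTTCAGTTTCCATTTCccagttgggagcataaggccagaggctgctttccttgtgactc
Socs1: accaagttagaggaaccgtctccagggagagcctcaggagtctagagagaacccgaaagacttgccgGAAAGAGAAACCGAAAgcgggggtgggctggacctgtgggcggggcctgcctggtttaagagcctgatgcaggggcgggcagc

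Irgm1, Bst2, Apol9a and Socs1 each held 2 overlapping matches, and Igtp and Irgm2 held 1. The first base of the match was 34 bases before the start in Igtp and 64 before it in Irgm2. Their 250-base windows shared a longest run of 55 bases, which did not hold the match. The match lay in another shared run, since the bases next to it on both sides were the same in Igtp and Irgm2. These are therefore not 2 independent matches. Over 250 bases, the motif was in 12 of 24 type I genes with a window and in 8 of 17 interferon-gamma genes, in 3 of 13 MHC class I genes and in 0 of 5 immunoproteasome genes, against 3.47% of 15691 measured genes with a window. Among all separated genes with a window it was in 5.45% of the downward and 3.97% of the upward ones. Igtp and Irgm2, GTPases of the Irgm1 family that were added after their values were seen, averaged 6.68 ± 1.63 and 6.49 ± 1.56 in HIFU tumors (SD, n = 9), against 9.09 ± 1.11 and 9.46 ± 1.59 in control tumors (SD, n = 3). With limma, their adjusted p-values were 0.147 and 0.139.

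Among tumor-cell and growth genes, no member of the lists passed the test. Mki67, a protein of dividing cells, read 14.71 to 16.42 in HIFU tumors and 15.25 to 15.27 in control tumors, with a difference of 0.16 ± 0.23. Of 23 cell cycle genes 1 was separated, downward (1.65% of all probe sets). At an unadjusted p under 0.05, 6 were lower (8.59% of all probe sets), with a median of -0.38. Of 23 DNA replication genes 2 were separated downward and 6 were lower by that p, with a median of -0.36. With the muscle covariate these medians turned to 0.23 and 0.12. Myc, a growth-promoting transcription factor, was separated, at 14.01 to 16.51 in HIFU tumors against 16.68 to 17.00 in control tumors (difference -1.38 ± 0.45, adjusted p = 0.217), and was at 0.09 with the muscle covariate. Th, the first enzyme of catecholamine synthesis, differed by 0.19 ± 0.76 and Mycn, the driver oncogene of many neuroblastomas, by -0.11 ± 0.54, both overlapping. The 17 measured core regulators of neuroblastoma had 0 separated members and a median of -0.35, which turned to 0.55 with the muscle covariate. The 16 heat shock genes also had 0 separated, with a median of 0.07, and Hspa1a, the inducible chaperone, overlapped.

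The 3 treated times were not told apart by the test. The moderated F test between times called 0 of 22206 probe sets (0%), with 1146 (5.16%) at an unadjusted p under 0.05, and 35 of the 390 upward and 12 of the 366 downward probe sets were among these. By that p, the separated gene that differed most between times was Ibsp, a mineral-binding protein of bone, with differences of 0.25 at 24 h, 1.53 at 48 h and 4.93 at 72 h (adjusted p of F = 0.252). Retreg1 was at 5.64, 3.86 and 2.33 and Pdk4 at 6.74, 4.41 and 3.58 in the same order. Lcn2 was at 7.46, 8.09 and 10.41. The largest difference fell at 24 h in 130, at 48 h in 95 and at 72 h in 165 of the upward probe sets, and in 116, 139 and 111 of the downward ones in the same order.

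**Figure D4:**
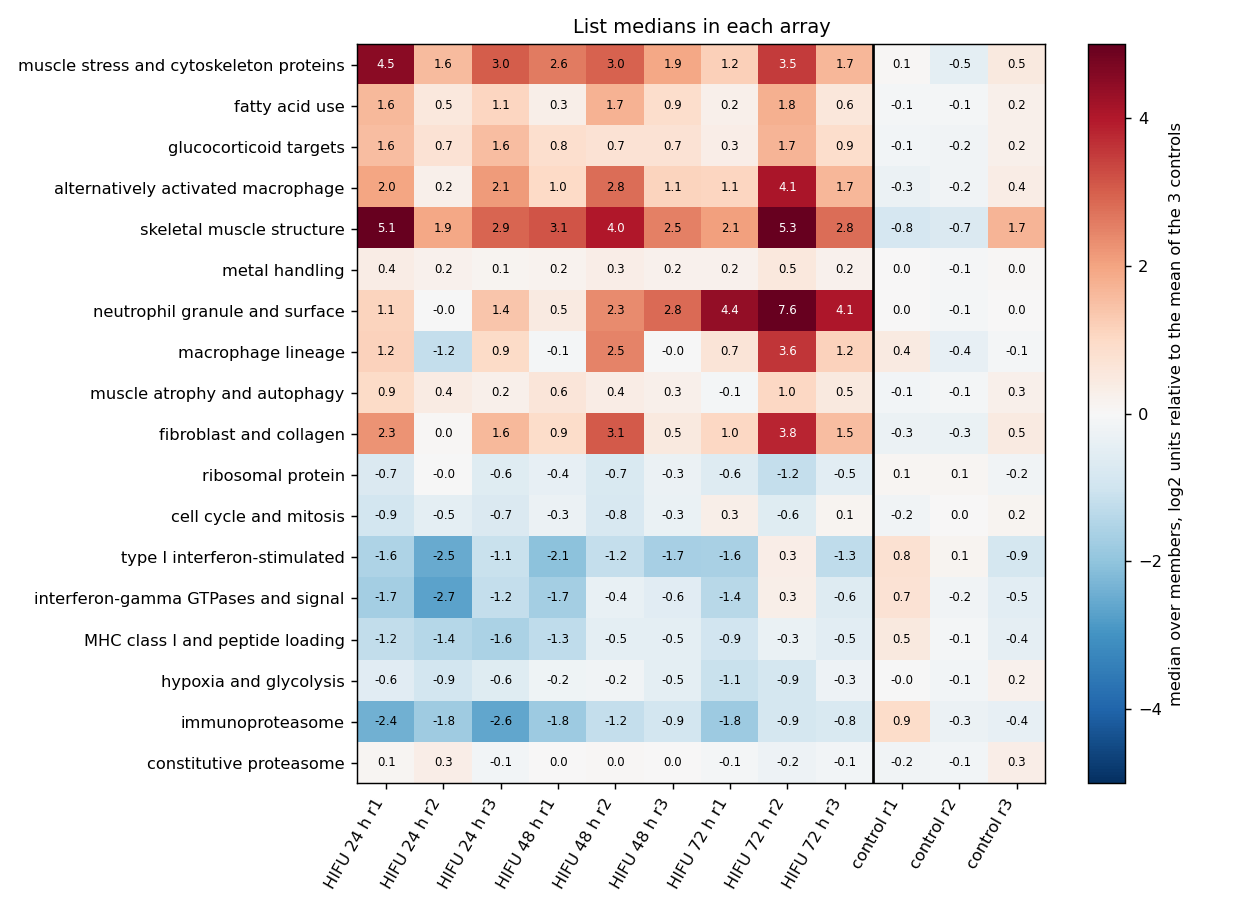
Each cell is the median over a list's measured members in 1 array, in log2 units relative to the mean of the 3 controls, with HIFU arrays on the left of the black line and control arrays on the right. The muscle structure and muscle stress lists are highest in 24 h replicate 1 and 72 h replicate 2, neutrophil genes are highest at 72 h, and the immunoproteasome is between -2.60 and -0.76 in the treated arrays, against 0.91, -0.31 and -0.42 in the controls.

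Muscle signal differed between the groups in the same direction as the upward genes. Of 26 muscle structure genes, 23 were higher in HIFU tumors at an unadjusted p under 0.05 (6.01% of all probe sets). Of the same 26, 9 were separated upward (1.76% of all probe sets), and the median difference was 3.24. Neb, the large protein that lines thin filaments, read 12.30 to 15.66 in HIFU tumors and 8.80 to 10.97 in control tumors. Acta1, muscle actin, overlapped, with 18.75 to 19.82 in HIFU tumors against 16.32, 16.34 and 18.79 in control tumors. Fibroblast and collagen genes had a median difference of 1.67, which turned to -0.82 with the muscle covariate, and 2 of 26 separated, and Col1a1 read 7.81 to 14.39 in HIFU tumors against 6.86 to 8.97 in control tumors.

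The muscle medians of the HIFU and control arrays did not overlap, so a fit with this covariate cannot tell muscle signal and treatment apart. With the muscle median of each array as a covariate, 232 of the 390 upward probe sets kept a positive difference and 26 had an unadjusted p under 0.05, with a median of 0.13. Of the 366 downward ones, 317 stayed negative and 29 had such a p, with a median of -0.34. Lcn2 was the 1 probe set called in that fit, at 6.66 ± 0.74 (limma, adjusted p = 0.0392). Pdk4 was at 4.22 ± 0.89, Retreg1 at 2.58 ± 0.67 and Mt1 at 2.34 ± 0.61, each with adjusted p = 0.996. Cd72 was at -4.40 ± 1.07. The sarcomere gene Ttn moved to 0.54, against 4.36 without the covariate. Ttn is itself on the list whose median is the covariate, so a shift toward 0 was built into the fit.

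**Figure D5:**
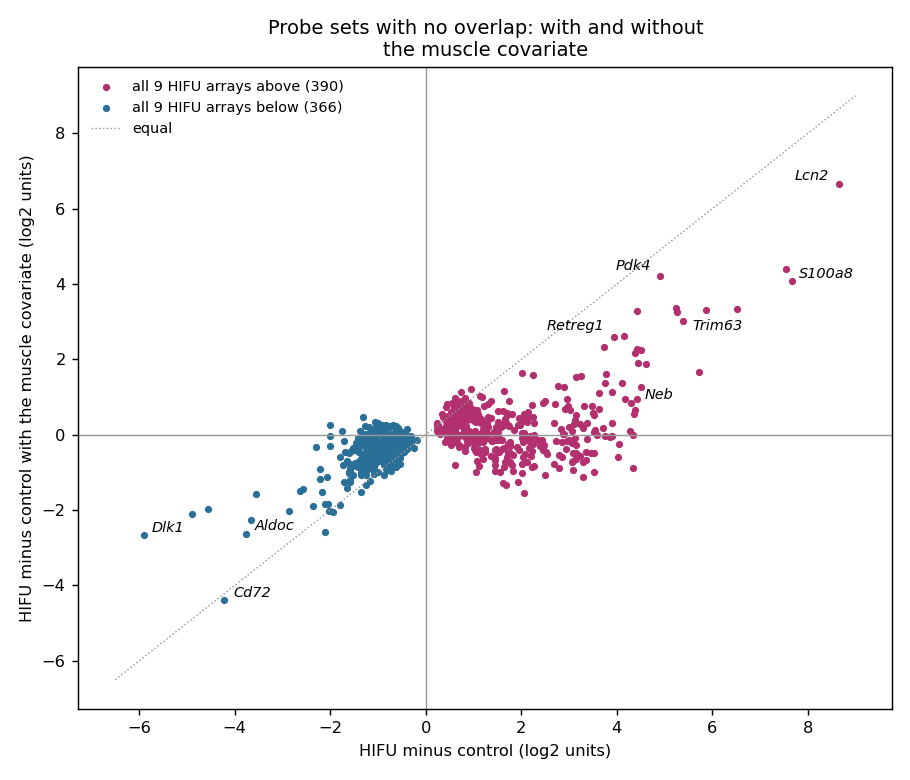
The HIFU minus control difference of the 756 separated probe sets in log2 units (x axis) and the same difference with each array's muscle median as a covariate (y axis); the dotted line marks equal values. Lcn2, Pdk4 and Cd72 keep 6.66, 4.22 and -4.40 on the y axis, while the 390 upward probe sets have a median of 0.13 there.

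The HIFU array and the control array closest to each other in muscle signal, 24 h replicate 2 and control replicate 3, are set side by side without a test. For separated genes the sign of a difference in any such pair was fixed beforehand. Its size could not be under the gap between the groups, which for Lcn2 was the same 5.27. The sizes are therefore given as description only. The muscle signal of the 2 arrays was close but not equal. Between them Acta1 differed by 0.32, Ttn and Actn2 by 0.94 each, Neb by 1.33 and Myot by 1.79. The muscle regulatory factor Myf6 differed by 4.90. Pdk4 differed by 6.60, Trim63 by 6.43, Lcn2 by 5.27, Retreg1 by 4.74, Fbxo32 by 4.66 and Mt1 by 3.73. Downward, Cd72 differed by -5.06, Psmb8 and Ddit4 by -2.38 each and Aldoc by -2.15, while Dlk1 differed by -1.56 and Mtmr2 by -0.65. S100a8 and S100a9 differed by 1.03 and 0.80 in this pair. Genes that overlapped between the groups could take either sign: Col1a1 differed by -1.16, Mmp8 by -0.89 and Il6 by 2.85.

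Control replicate 3 also set the edge of most separations. It was the control nearest to the HIFU arrays in 224 of the 390 upward and 218 of the 366 downward probe sets. Without it, 398 probe sets changed by limma, 94 higher and 304 lower, and all 4 genes named first were among them. Cd72 then fell by limma, by 4.70 on the log2 scale (adjusted p = 0.00752), as did Aldoc by 4.70 (adjusted p = 0.000563), Dlk1 by 7.87 (adjusted p = 9.92e-05) and Psmb8 by 2.10 (adjusted p = 0.0274). This control was singled out for lying nearest to the HIFU arrays. Leaving it out therefore widens such differences by construction, and these calls are no independent support for the falls. The count was 1 without control replicate 1 and 1 without control replicate 2. Without 24 h replicate 2, the treated array of lowest muscle signal, 44 probe sets changed, 28 higher and 16 lower, and without 72 h replicate 2, the highest, 18 did, 17 higher and 1 lower. The part of muscle content in these counts was not tested.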

How the data were processed

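Per the labels, RNA of 12 frozen tumors was hybridized to 1 array each, in 4 groups of 3. The values deposited by the authors are log2 signals per probe set, from 1.75 to 19.93; scale and base were read from the values. The submitters' processing notes name Transcriptome Analysis Console 4.0. How background, summarization, filters and genome build were handled is not given here. Scaling between arrays removes shifts common to all genes, so differences are relative to the other genes. No read depth exists for arrays; their number limits the precision. Symbols came from the platform annotation through RefSeq gene numbers (GRCm38.p6): 19572 of 22206 probe sets had 1 symbol, 0 several and 2634 none; 55 symbols were on more than 1 probe set.

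A mean per group was fitted to all 12 arrays with limma 3.58.1 (lmFit, eBayes) in R 4.3.3, and the mean of the 3 HIFU groups was contrasted with control. A moderated F test compared the 3 times. Tests were two-sided, with Benjamini-Hochberg adjustment over all probe sets and a threshold of 0.05. The fit was tested on simulated data. Errors are limma standard errors unless given as SD. "Separated" means that the lowest HIFU value was above the highest control value, or the reverse. The 49 gene lists are described by counts and medians, taking for each gene the probe set of highest mean, and 955 of 1050 listed genes were measured. The muscle covariate was the median over the muscle structure list. Promoter windows of 250 bases came from RefSeq, and 15691 measured genes had one. Python 3.11.15 was used for counts, motifs and figures.

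The members, lists, tests and naming rule were chosen with earlier results of these data known. The rule takes called and separated probe sets, filled to 10 per direction by unadjusted p, the 8 widest gaps per direction, up to 4 members of each list by p, the 5 separated probe sets with the smallest F p, and preset genes of immunity, stress and tumor identity. Alternatives were a replicate block, 2 means, array weights, median centring, robust estimation with an intensity trend, quantile normalization, the lowest 25% left out, the muscle covariate, only named probe sets, an unadjusted p with a difference over 1, and leaving out each time and each array.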

Additional observations from a re-analysis of the deposited data

Results flagged for a closer look

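Among 133 sets of 9 HIFU values examined (84 genes and 49 list medians), 10 had 1 array far from the rest by Dixon's criterion, and chance alone gives about 1 in 20. In 6 of them the array was 72 h replicate 2. Relative to the control mean, its list median was 5.10 for erythroid genes (next array 1.91), 2.55 for muscle regulatory factors (next 0.84), 2.22 for haem and iron handling (next 0.94) and 1.96 for bone and osteoclast genes (next 0.74). It was 0.33 for type I interferon-stimulated genes (next -1.13) and -1.61 for the neuroblastoma core (next -0.66). This array also had the highest muscle median, 15.85, and the highest median signal, 5.68; their part in these values was not tested.

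In 24 h replicate 1, the signal of Hspa1a was 8.35, with the next array at 7.23, and the median of imprinted growth genes was 0.70. The oxidative phosphorylation median was -0.59 in 24 h replicate 3, and the keratinocyte median was 1.26 in 48 h replicate 3.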

How the results depend on the processing

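The count of 4 changed probe sets, all higher, depended on the settings. It was 4 with quantile normalization and with named probe sets only, and 3 without the 48 h tumors. It was 1 with a replicate block, with 2 means, with the muscle covariate and without the 24 h tumors. It was 14 with median centring (11 higher, 3 lower), 14 with an intensity trend and robust estimation, 15 without the lowest 25%, 23 without the 72 h tumors, 3787 with array weights (1596 higher, 2191 lower) and 1500 by an unadjusted p with a difference over 1. Leaving out 1 array gave 1 to 398. The cause of these changes was not tested. The array weights ran from 0.31 in 72 h replicate 2 to 4.19 in control replicate 2.

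The 756 separated probe sets were 3399 when each array was set against the control mean, and 1790, 1204 and 1489 without the 24, 48 or 72 h tumors. Leaving out 1 array gave 794 to 3065, the highest without control replicate 3, with 1452 without 24 h replicate 2, 1140 without control replicate 1 and 1191 without control replicate 2. Fewer arrays can only raise this count. Changes between times were 3 without the 48 h tumors and otherwise 0 to 7 with 1 array left out, the 7 without 48 h replicate 3.

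Whether the replicate numbers pair the samples could not be told from the values. Same-numbered arrays correlated in their deviations with r from -0.61 to 0.62 (median -0.13), and other-numbered arrays with r from -0.58 to 0.60. The replicate block left 1 called probe set.

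Of 84 named genes, 11 changed sign under some alternative. With the muscle covariate the differences were -0.080 for Dcn, -0.53 for Col1a1, -0.86 for Col3a1, -0.12 for Hmox1, 1.61 for Il6, -0.68 for Il1b, -0.20 for Hspa1a 0.81 for Mycn and 0.090 for Myc. Mki67 was at -0.14 without the 72 h tumors. With 1 array left out, Th ranged from -0.59 (without control replicate 1) to 1.03 (without control replicate 3) and Mycn from -0.58 to 0.30 (without the same arrays). Mycn was at 0.10 with array weights and 0.07 without the 72 h tumors. Of the 34 list medians over 0.3 in size, 20 changed sign with the muscle covariate (among them the macrophage, fatty acid use, glucocorticoid, muscle atrophy and collagen lists) and none under the other alternatives run on them; the interferon, MHC, immunoproteasome and hypoxia medians stayed negative.

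Signals near the floor limit what can be seen: S100a8, Ibsp and Cnksr1 in the controls lay among the lowest 25% of control means (under 3.49).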
